A study of Mus musculus with 32 samples.

Results

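The 9 genes described here make, inactivate or sense prostaglandins: the cyclooxygenase genes *Ptgs1* and *Ptgs2*, the synthases *Ptges* and *Ptgis*, the prostaglandin dehydrogenase *Hpgd* and the prostaglandin E2 receptor genes *Ptger1*, *Ptger2*, *Ptger3* and *Ptger4*. They were taken by symbol, 9 of the 55291 genes counted, and the rule that took them uses no measured value. Each was measured by RNA-Seq in 32 libraries of mouse colon and colon tumor in 8 groups. WT (*Dnase1l3*+/+) and *Dnase1l3*-KO (*Dnase1l3*-/-, a constitutive deficiency of the whole body) mice were on the C57BL/6 background. *Dnase1l3* encodes a secreted DNase, and the comparisons asked how its loss bears on colon injury and tumor formation. Whole colon was taken from untreated mice (D0), after 1 cycle of AOM/DSS with 5 days of recovery (D19) and after 3 cycles (D80), with 4 mice in each genotype at each stage. Tumors were taken after 3 cycles from 5 WT and 3 KO mice. The carcinogen azoxymethane (AOM) was injected once at 8 mg/kg, and dextran sulfate sodium (DSS), a detergent-like sugar polymer that injures the epithelium, was put in the drinking water. All groups except D0 received both agents. The methods give an age of 3 months at AOM injection for this model, and the age at D0 is not given in the sources used here. Whole colon holds the muscle wall as well as the mucosa, while isolated tumors need not.

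*Dnase1l3* (ENSMUSG00000025279) was at 1.79 to 3.59 CPM (counts scaled to the size of the library, with TMM factors) in WT and 1.64 to 5.02 CPM in KO colon at D0, 7.29 to 8.84 and 0.675 to 6.79 CPM at D19, 3.20 to 9.05 and 3.09 to 11.9 CPM at D80, and 2.04 to 10.4 and 3.57 to 8.50 CPM in tumors. Libraries labelled KO lay below all those labelled WT at D19 but overlapped them at D0, at D80 and in tumors. The log2 fold change of KO against WT was 0.27 at D0 (adjusted p = 0.827), -1.07 at D19 (adjusted p = 0.444), -0.18 at D80 (adjusted p = 0.878) and -0.22 in tumors (adjusted p = 0.888, edgeR). The deleted part of the gene is not given in the sources used here, so it is unknown whether these counts come from it. The study reports strongly reduced *Dnase1l3* expression along the intestine of this KO strain, and KO serum that was defective in digesting DNA and chromatin. WT and KO below mean the libraries so labelled, and the counts alone did not settle the genotype labels.

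Prostaglandins are lipid signals made from arachidonic acid. The cyclooxygenases COX-1 (*Ptgs1*, present in most tissues) and COX-2 (*Ptgs2*, induced by injury and cytokines) form the common precursor PGH2, which the microsomal PGE synthase (*Ptges*) turns into prostaglandin E2 and prostacyclin synthase (*Ptgis*) into prostacyclin. The 15-hydroxyprostaglandin dehydrogenase encoded by *Hpgd*, abundant in the differentiated colon epithelium, inactivates prostaglandin E2, which otherwise acts through the receptors EP1 to EP4 (*Ptger1* to *Ptger4*). In the intestine this pathway is known for its part in epithelial repair and in tumor growth, and COX-2 is a target of aspirin and other NSAIDs.

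The promoters of *Ptgs2*, *Ptges* and *Hpgd* are shown because these 3 genes carry most of the changes described here: an inducible cyclooxygenase, the synthase that acts after it and the enzyme that removes the product. Each is the 250 bases before the RefSeq start, from RefSeq on GRCm38.p6, which held an entry for 7 of the 9 genes (*Ptgis* and *Ptger1* were named only). The *Ptges* window lies inside the GENCODE span of the gene (30889471 to 30929863, minus strand), so its RefSeq start is not the GENCODE start. Capitals mark the palindromic C/EBP site TTGCGCAA and the GC box GGGCGG, on either strand.
Ptgs2 promoter, chr1:150099781-150100030, plus strand: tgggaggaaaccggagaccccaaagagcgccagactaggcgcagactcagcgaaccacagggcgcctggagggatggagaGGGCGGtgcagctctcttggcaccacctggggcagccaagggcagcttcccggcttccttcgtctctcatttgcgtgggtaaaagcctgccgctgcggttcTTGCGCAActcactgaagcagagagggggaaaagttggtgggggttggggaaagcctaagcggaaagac
Ptges promoter, chr2:30903298-30903547, minus strand: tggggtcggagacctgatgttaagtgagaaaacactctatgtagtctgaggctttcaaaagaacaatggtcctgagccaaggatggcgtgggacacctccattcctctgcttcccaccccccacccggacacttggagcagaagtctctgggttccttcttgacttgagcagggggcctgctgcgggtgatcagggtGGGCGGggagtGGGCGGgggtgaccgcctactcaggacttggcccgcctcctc
Hpgd promoter, chr8:56294302-56294551, plus strand: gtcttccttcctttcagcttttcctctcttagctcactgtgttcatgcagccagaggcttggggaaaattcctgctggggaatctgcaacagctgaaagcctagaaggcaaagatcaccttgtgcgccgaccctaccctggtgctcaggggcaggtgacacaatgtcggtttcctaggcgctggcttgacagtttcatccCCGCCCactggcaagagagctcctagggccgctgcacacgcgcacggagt

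The *Ptgs2* promoter holds TTGCGCAA at positions -69 to -62, counted with -1 as the last base before the start. This palindrome is rare, found in 0.17% of 27025 promoters of the same length. Its GC box lies at -170 to -165. The *Ptges* promoter holds 2 GC boxes, which begin at -53 and -42, and the *Hpgd* promoter holds 1, on the minus strand, at -50 to -45. A GC box is common and stands in 32.9% of all promoters. The other motifs searched on both strands before the start were the CRE core TGACGT (6.56% of promoters), the E-box CACGTG (6.05%), the TATA box TATAAA (13%), the AP-1 site TGANTCA (6.87%) and an NF-kB site (1.4%), and no match occurred in the 3 promoters shown. The counted windows end at the start, and just past it *Ptgs2* holds the CRE core at 13 to 18 and the E-box at 17 to 22, which overlap, and *Hpgd* the TATA box at 5 to 10. A match is a description of the sequence, and binding was not measured.

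In untreated colon, *Hpgd* was by far the most abundant of the 9 genes. Per kb of exon its level in WT colon at D0 was 84.6 ± 12.7 CPM (SD, n = 4), against 8.42 ± 1.68 for *Ptgs1* and 6.91 ± 0.772 for *Ptger4*. *Ptgis* followed with 2.43 ± 1.01 CPM per kb. *Ptgs2* (1.25 ± 0.380), *Ptger3* (1.07 ± 0.231) and *Ptges* (1.02 ± 0.275) lay close together, and *Ptger2* (0.530 ± 0.0981) and *Ptger1* (0.134 ± 0.0442) were lowest. Transcripts of *Hpgd*, *Ptgs1* and *Ptger4* thus stood above those of *Ptgs2* and the PGE synthase gene *Ptges*.

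Across the model levels shifted, but per kb of exon *Hpgd* kept the highest mean of the 9 genes in every group. In KO colon at D19 it was at 42.3 CPM per kb against 15.5 for *Ptgs2*. In tumors it was at 14.0 (WT) and 8.84 (KO) against 6.14 and 5.57 for *Ptges*. *Ptges* and *Ptgs2* rose at D19 in both genotypes. *Hpgd* passed the test for a fall at D19 and D80 in KO colon, and it fell in tumors of both genotypes against D80 colon. *Ptgis*, *Ptger3* and *Ptgs1* fell in tumors of both genotypes, whereas *Ptger4* stayed within a narrow range there. A gene is said to rise or fall when its adjusted p was under 0.05 in edgeR's quasi-likelihood test, adjusted by the Benjamini-Hochberg method over all genes tested. All 9 genes passed the filter on low counts in each of the 12 comparisons. In bulk tissue fewer cells of a type and less RNA per cell cannot be told apart.

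**Figure D1:**
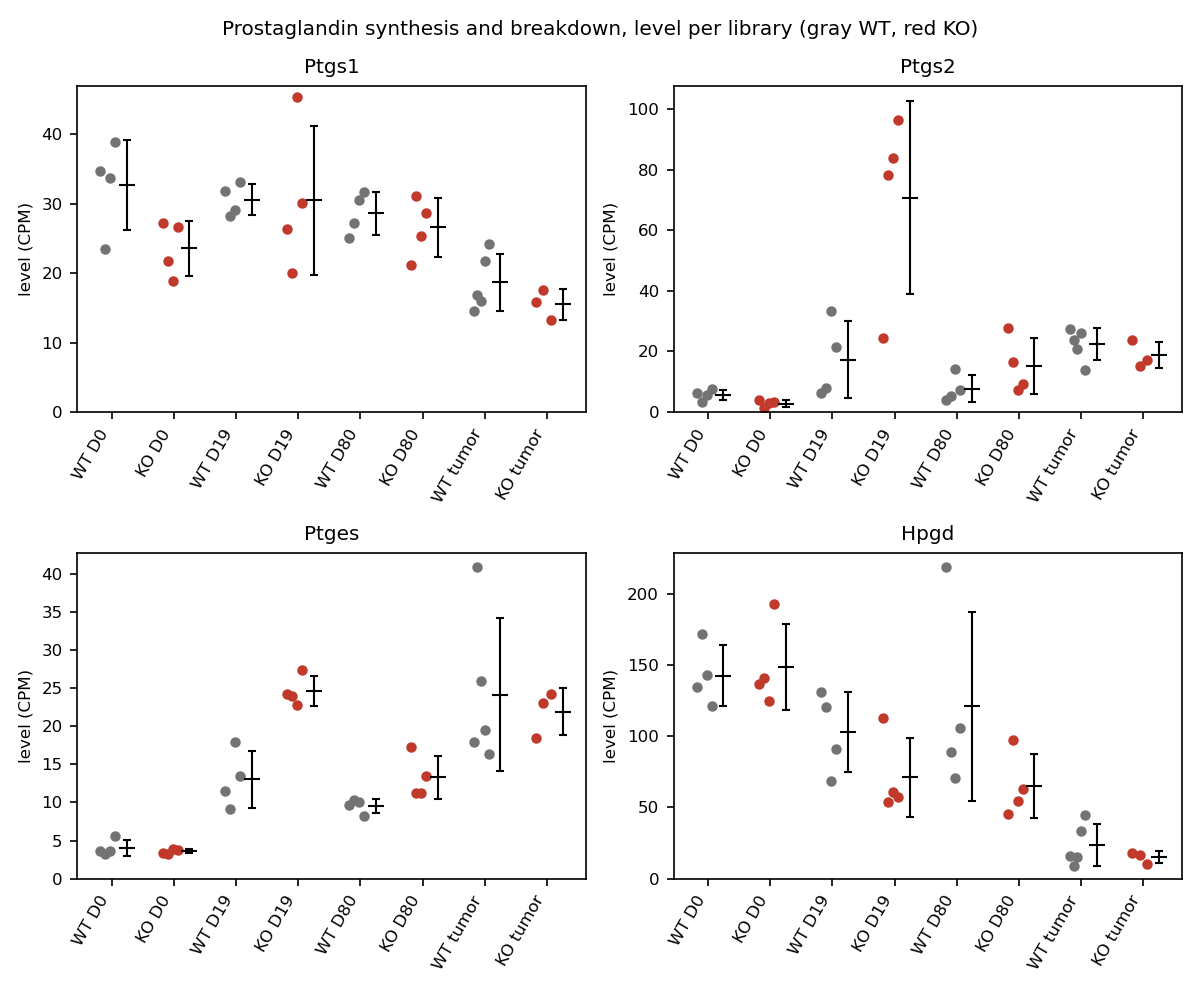
Level (CPM) of *Ptgs1*, *Ptgs2*, *Ptges* and *Hpgd* in each of the 32 libraries by group, with gray points for WT, red points for KO, and black bars for the mean ± SD. *Ptgs2* reached 78.3 to 96.3 CPM in 3 of the 4 KO libraries at D19, and *Hpgd* lay at 8.93 to 44.8 CPM in the tumors.

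At D19 against D0, 4 of the 9 genes passed the test in WT colon (3 higher and 1 lower), where 46.8% of 18570 genes passed (24.2% higher, 22.6% lower). In KO colon 4 of the 9 passed as well (3 higher and 1 lower), where 13% of 19191 genes passed (9.61% higher, 3.43% lower). At D80 against D0, 1 of the 9 passed in WT colon (12.9% of all genes) and 4 in KO colon (53.3%), 2 in each direction (28.4% of all genes higher, 24.8% lower). These comparisons share the D0 libraries of each genotype. In tumor against D80 colon, 7 of the 9 passed in WT (29.6% of all genes, 12.4% higher and 17.2% lower) and 6 in KO (46.4%, 21.8% and 24.7%). Against these shares, the 9 genes passed about as often as all genes, or less often, at D19 in WT colon and at D80 in both genotypes, so the counts there say nothing about the 9 in particular.

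Read by library, some groups did not overlap at all. At D19 this held in WT colon for 2 of the 9 genes that were higher (24.9% of all genes) and 1 that was lower (18.6%), and in KO colon for 3 that were higher (11.5%) and 2 that were lower (7.5%). At D80 it held in WT colon for 1 higher (14%) and 1 lower (10.1%), where 8.57% of all genes passed the test upward and 4.32% downward, and in KO colon for 2 higher (28.9%) and 1 lower (20.4%). In tumors against D80 colon it held for 1 higher (20.8%) and 5 lower (13.4%) in WT and for 1 higher (26.4%) and 5 lower (27.9%) in KO mice. Between genotypes it held at D0 for none higher (1.76%) and 1 lower (1.65%), at D19 for 2 higher (4.23%) and none lower (4.85%), at D80 for 1 higher (3.34%) and none lower (1.91%), and in tumors for none higher (2.12%) or lower (1.13%).

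**Figure D2:**
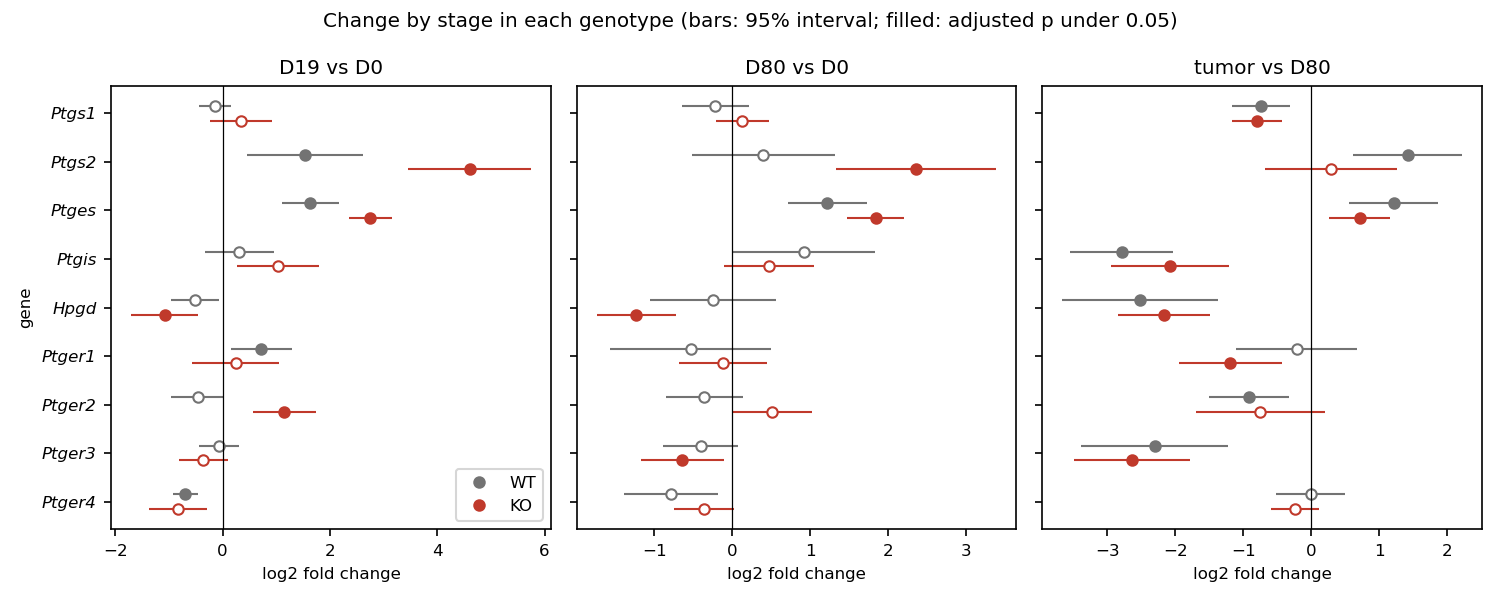
Log2 fold change of each of the 9 genes (horizontal axis) at D19 against D0, at D80 against D0 and in tumor against D80 colon, in WT (gray) and KO (red) mice, with 95% intervals as bars and filled points for an adjusted p under 0.05. In KO colon at D19 *Ptgs2* lies at 4.60 and *Ptges* at 2.76, and in tumors *Ptgis*, *Hpgd* and *Ptger3* lie below -2 in both genotypes.

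*Ptgs2* (ENSMUSG00000032487, GRCm38 chromosome 1, 150100031 to 150108227, plus strand), whose promoter is printed above, had the largest change of the 9 genes at D19 in KO colon, while *Ptges* changed more in WT colon. In WT colon its level was 6.38, 3.43, 5.51 and 7.56 CPM at D0 and 6.33, 7.84, 33.2 and 21.6 CPM at D19. The 2 groups overlapped, since 2 of the D19 libraries (685 and 686) lay within or just above the D0 range. The rise in WT colon was 1.54 on the log2 scale (SE 0.49, adjusted p = 0.0262, edgeR). Leaving out 851, 918 or 920 at D0, or 805 or 812 at D19, ended this call, with log2 fold changes of 1.01 to 1.80 and an adjusted p of up to 0.0706 over the omissions. In KO colon *Ptgs2* was 4.01, 1.27, 2.88 and 3.18 CPM at D0, and at D19 it was 24.5 CPM in mouse 811 and 78.3, 83.8 and 96.3 CPM in the others. The KO groups did not overlap. The rise in KO colon was 4.60 (SE 0.51, adjusted p = 0.000281, edgeR).

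KO and WT colon at D19 overlapped in *Ptgs2*, because the lowest KO library (24.5 CPM) lay below the highest WT library (33.2 CPM). The difference was 2.06 on the log2 scale (SE 0.57, 95% interval 0.77 to 3.34), with an adjusted p of 0.346 in edgeR. No gene of 19545 passed in that comparison by edgeR (0%), although 2213 genes lay under 0.05 before adjustment. By DESeq2 236 genes were higher and 100 lower, among them *Ptgs2* (log2 fold change 2.05, adjusted p = 0.0206), and edgeR on all libraries in a single fit called *Ptgs2* as well (adjusted p = 0.0446). *Ptgs2* is in a gene set that the study chose on these same samples for induction in KO colon at D19, so its direction there is not independent evidence. The 2 low WT libraries, 685 and 686, carry the label prefix 97, which no KO library carries, and the meaning of the prefix is not given in the sources used here. Within prefix 115 the WT library had 33.2 CPM and the KO libraries 83.8 and 96.3 CPM, and within prefix 116 the WT library had 21.6 CPM and the KO libraries 24.5 and 78.3 CPM. On these 2 prefixes alone the difference was 1.39 (SE 0.55, adjusted p = 0.999, edgeR). Mouse 811 had the highest mitochondrial share of its group, 10.6% of counts against 7.04% in mouse 813, while WT mouse 851 at D0 had 11.7%. Without mouse 811 the difference was 2.32 (SE 0.51, adjusted p = 0.195, edgeR).

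The test of whether the change from D0 to D19 differed between genotypes gave 3.06 on the log2 scale for *Ptgs2* (SE 0.71, 95% interval 1.55 to 4.57), 1.11 for *Ptges* (SE 0.29, 0.51 to 1.72) and 1.62 for *Ptger2* (SE 0.33, 0.92 to 2.33), each larger in KO. None of the 9 passed in edgeR (adjusted p 0.156, 0.194 and 0.111 for these 3), where 6 of 20149 genes passed (0.0298%). DESeq2 called these 3 genes (adjusted p 0.0042, 0.0317 and 0.00222) and 71 genes higher and 107 lower in all. In edgeR *Ptgs2* passed when WT mouse 805 was left out (3.58, adjusted p = 0.0486). These values also hold the lower KO levels at D0, where KO against WT was -0.998 for *Ptgs2*, -0.16 for *Ptges* and -0.93 for *Ptger2*.

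At D80 *Ptgs2* in WT colon was 4.06, 5.26, 14.1 and 7.36 CPM, which overlapped the D0 range (log2 fold change 0.40, SE 0.40, adjusted p = 0.611, edgeR). In KO colon it was 27.8, 16.4, 7.22 and 9.30 CPM, above every KO library at D0, and the rise was 2.36 (SE 0.46, adjusted p = 0.00185, edgeR). KO and WT colon at D80 overlapped. Their difference of 0.95 (SE 0.50, adjusted p = 0.681, edgeR) turned to -0.22 with the label prefix as a block.

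In tumors *Ptgs2* was 27.3, 23.7, 20.7, 26.2 and 14.0 CPM in WT and 23.7, 15.3 and 17.3 CPM in KO mice. Only the lowest WT tumor (14.0 CPM) fell within the range of WT colon at D80. *Ptgs2* thus rose in WT tumors (1.42, SE 0.36, adjusted p = 0.0146, edgeR), while KO tumors lay within the range of KO colon at D80 (0.29, SE 0.42, 95% interval -0.68 to 1.26, adjusted p = 0.593). The difference between these changes was -1.13 (SE 0.58, adjusted p = 0.455, edgeR). KO against WT tumors differed by -0.21 (SE 0.24, 95% interval -0.73 to 0.32, adjusted p = 0.785).

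*Ptgs1* (ENSMUSG00000047250, chromosome 2, 36230426 to 36252272, plus strand), the gene of the constitutive COX-1, moved little in colon. Its mean level was 23.6 to 32.7 CPM over the 6 colon groups, and neighbours in the order of group means overlapped throughout. In tumors it was 14.5, 16.8, 16.1, 21.8 and 24.3 CPM in WT and 15.8, 17.7 and 13.2 CPM in KO mice, below every D80 colon library of the same genotype. The fall was 0.74 on the log2 scale in WT and 0.80 in KO mice, with log2 fold changes of -0.74 (SE 0.19, adjusted p = 0.0156) and -0.80 (SE 0.16, adjusted p = 0.00608, edgeR). Set per kb of exon, *Ptgs2* made up 12.7 ± 1.40% of the 2 cyclooxygenase transcripts in WT colon at D0 and 9.13 ± 3.11% in KO colon (SD, n = 4). At D19 the share was 29.5 ± 15.9% in WT and 63.7 ± 14.8% in KO colon, and at D80 17.7 ± 7.18% and 31.1 ± 15.1%. In tumors it was 50.3 ± 10.6% in WT (n = 5) and 50.3 ± 7.05% in KO mice (n = 3). COX-2 transcript was thus a minor part at D0 and about as abundant as COX-1 transcript in tumors.

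*Ptges* (ENSMUSG00000050737, chromosome 2, 30889471 to 30929863, minus strand) was the steadiest riser. In WT colon its level was 3.67, 3.23, 3.58 and 5.62 CPM at D0, 11.5, 9.18, 17.98 and 13.4 CPM at D19 and 9.69, 10.3, 10.04 and 8.17 CPM at D80. In KO colon it was 3.40, 3.29, 3.89 and 3.77 CPM at D0, 24.2, 24.0, 22.8 and 27.4 CPM at D19 and 17.2, 11.2, 11.3 and 13.5 CPM at D80. Every library at D19 and D80 lay above every D0 library of the same genotype. The rise at D19 was 1.64 in WT (SE 0.24, adjusted p = 0.000492) and 2.76 in KO colon (SE 0.18, adjusted p = 3.23e-05, edgeR). At D80 it was 1.22 (SE 0.23, adjusted p = 0.00886) and 1.84 (SE 0.16, adjusted p = 2.09e-05). These 4 calls held in every omission of a single library.

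KO and WT colon did not overlap in *Ptges* at D19, with all 4 KO libraries higher, as 4.23% of all genes tested were. The difference was 0.95 (SE 0.21, 95% interval 0.47 to 1.43, adjusted p = 0.309, edgeR), and DESeq2 called it (adjusted p = 0.0145). At D80 the KO libraries again lay above the WT libraries, as did those of 3.34% of genes (0.43, SE 0.19, 95% interval -0.01 to 0.86, adjusted p = 0.681, edgeR). At D0 the genotypes overlapped (-0.16, SE 0.20). In tumors *Ptges* was 17.96, 40.9, 25.9, 19.6 and 16.3 CPM in WT and 18.4, 23.0 and 24.3 CPM in KO mice, above every D80 colon library of the same genotype. It rose by 1.21 in WT (SE 0.30, adjusted p = 0.0123) and by 0.71 in KO mice (SE 0.20, adjusted p = 0.02, edgeR). With the mouse as a replicate block the KO value was 0.64 and no longer passed (adjusted p = 0.0872). It also no longer passed without 535, 543 or 544 at D80 (adjusted p up to 0.0596). KO and WT tumors overlapped (-0.09, SE 0.31, 95% interval -0.79 to 0.61).

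*Ptgis* (ENSMUSG00000017969, chromosome 2, 167191805 to 167240604, minus strand), which encodes prostacyclin synthase of vascular and muscle cells, was within 2.63 to 19.04 CPM in all colon libraries. The highest was WT mouse 581 at D80, a library that also stood apart in its mitochondrial share. In tumors it was 2.06, 1.32, 1.70, 1.57 and 2.88 CPM in WT and 1.04, 1.47 and 2.64 CPM in KO mice, below every D80 library. The log2 fold change was -2.79 in WT (SE 0.34, adjusted p = 0.000463) and -2.08 in KO mice (SE 0.38, adjusted p = 0.00386, edgeR). At D19 in KO colon it was 15.8, 6.07, 9.93 and 10.4 CPM against 4.76, 7.77, 3.29 and 4.53 CPM at D0, which did not pass (1.03, SE 0.34, adjusted p = 0.0827).

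*Hpgd* (ENSMUSG00000031613, chromosome 8, 56294585 to 56321043, plus strand), the gene of the enzyme that inactivates prostaglandins, went the other way. In WT colon its level was 134.5, 171.5, 142.8 and 121 CPM at D0, 130.8, 120.4, 68.8 and 91.4 CPM at D19 and 218.5, 89.0, 70.9 and 105.8 CPM at D80. The WT groups overlapped, and the 2 D19 libraries with prefix 97 were again those nearest to D0. The log2 fold change in WT colon was -0.51 at D19 (SE 0.20, adjusted p = 0.0599) and -0.25 at D80 (SE 0.36, adjusted p = 0.742, edgeR). Without mouse 581, the highest library, the D80 value was -0.74 (adjusted p = 0.00418).

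In KO colon *Hpgd* was 136.6, 141.1, 124.7 and 192.5 CPM at D0, 112.8 CPM in mouse 811 at D19 and 54.0, 60.9 and 57.2 CPM in the other 3, and 45.7, 97.2, 54.7 and 63.2 CPM at D80. Every treated library lay below every D0 library. *Hpgd* fell by 1.08 at D19 (SE 0.28, adjusted p = 0.0306) and by 1.23 at D80 (SE 0.23, adjusted p = 0.00137, edgeR). The D19 call was lost in each omission of a single library except that of mouse 811, with an adjusted p of up to 0.102, and without 811 the value was -1.40 (adjusted p = 0.00024). KO against WT colon differed by -0.50 at D19 (SE 0.33, adjusted p = 0.546) and by -0.97 at D80 (SE 0.43, adjusted p = 0.681, edgeR), where the value was -0.44 without mouse 581. Most surface colonocyte markers were lower than at D0 in treated colon of both genotypes. In WT colon *Hpgd* did not pass on all libraries, and 8 of 10 markers were lower at D19 (5 passed, median -0.61). The other 2 passed as higher. At D80 8 of 10 were lower in WT colon (2 passed, median -0.57), and 1 passed as higher. In KO colon 9 of 10 were lower at D19 (3 passed, median -0.93) and 9 of 10 at D80 (8 passed, median -1.18), and KO against WT at D80 had 9 of 10 lower (none passed, median -1.07). Their sum in WT colon was 8824 to 10380 CPM at D0, 3741 to 5182 CPM at D19 and 3428 to 6783 CPM at D80. In KO colon it was 7316 to 11920 CPM at D0, 3260 to 4266 CPM at D19 and 2620 to 3950 CPM at D80. The part of these cells in the *Hpgd* values was not tested.

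Tumors had the lowest *Hpgd* levels of all groups. They were 16.0, 8.93, 15.1, 33.2 and 44.8 CPM in WT and 17.8, 16.8 and 10.04 CPM in KO mice, all below the lowest D80 colon library of either genotype (45.7 CPM). The log2 fold change against D80 colon was -2.52 in WT (SE 0.52, adjusted p = 0.00542) and -2.17 in KO mice (SE 0.30, adjusted p = 0.00129, edgeR). Both held in every omission of a single library and with the mouse as a replicate block (-2.33, adjusted p = 0.01, and -1.92, adjusted p = 0.00717). KO against WT tumors overlapped (-0.63, SE 0.47, 95% interval -1.67 to 0.42, adjusted p = 0.711).

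**Figure D3:**
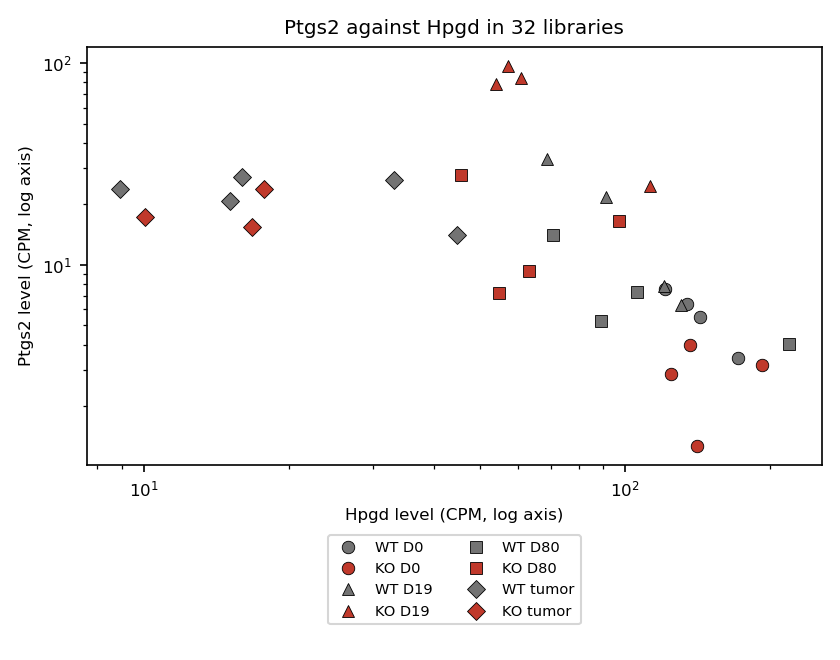
Level of *Ptgs2* (vertical, CPM, log axis) against that of *Hpgd* (horizontal, CPM, log axis) in each of the 32 libraries, with gray for WT, red for KO and a symbol for each stage. Untreated colon sits at the lower right, tumors at the left with *Hpgd* under 45 CPM, and 3 KO libraries at D19 at the top.

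The log2 ratio of their CPM, read only between groups because the genes differ in length, was -4.69 ± 0.70 in WT and -5.81 ± 0.74 in KO colon at D0 (SD, n = 4). At D19 it was -2.86 ± 1.56 in WT and -0.11 ± 1.40 in KO colon, and at D80 -4.00 ± 1.40 and -2.24 ± 1.03. In tumors it was 0.12 ± 1.19 in WT (n = 5) and 0.36 ± 0.46 in KO mice (n = 3). Of the 4 KO libraries at D19, 3 lay within the range of the tumors (-1.68 to 1.41), and mouse 811 lay below it (-2.20). Those 3 had higher *Ptgs2* and higher *Hpgd* levels than every tumor. No test was made of this ratio.

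**Figure D4:**
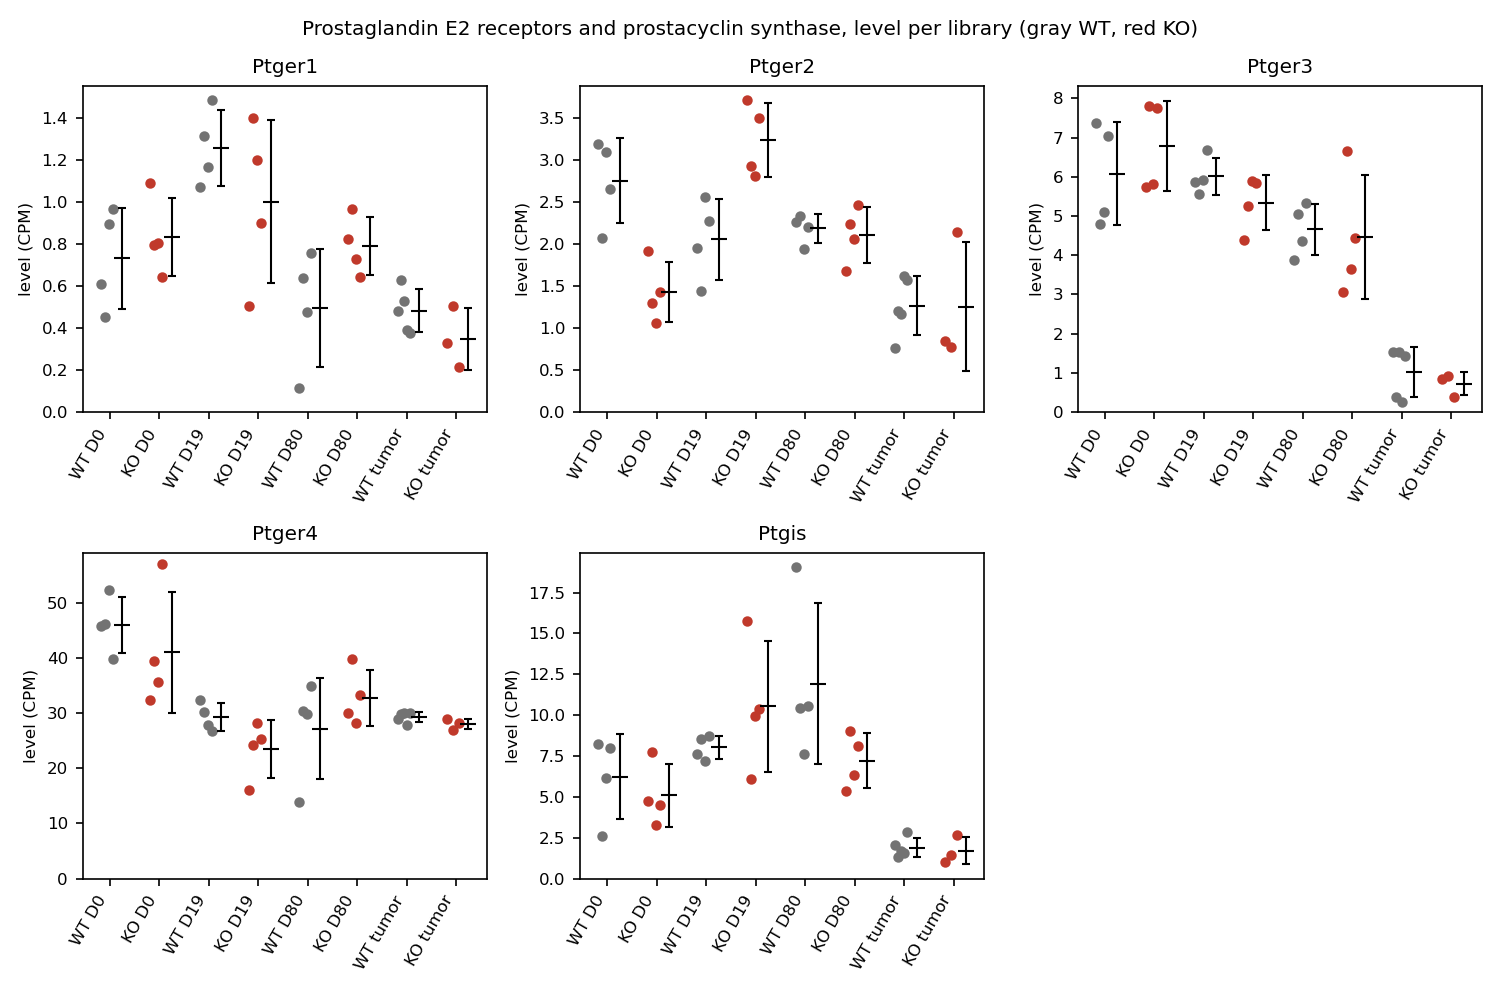
Level (CPM) of the 4 prostaglandin E2 receptor genes and *Ptgis* in each of the 32 libraries by group, with gray points for WT, red points for KO, and black bars for the mean ± SD. *Ptger3* and *Ptgis* are lowest in the tumors of both genotypes, and *Ptger4* lies between 27.0 and 30.0 CPM in all 8 tumors.

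Of the receptors, *Ptger4* (ENSMUSG00000039942, chromosome 15, 5206661 to 5244187, minus strand) was the most abundant in every group. It encodes EP4, which raises cyclic AMP. Per kb of exon it made up 66.4 ± 4.22% of the 4 receptor transcripts in KO colon at D19, the lowest group, and 90.7 ± 1.55% in KO tumors, the highest. In WT colon its level was 45.7, 46.0, 52.3 and 39.7 CPM at D0 and 32.4, 30.1, 27.9 and 26.8 CPM at D19. All 4 D19 libraries lay below D0, and the log2 fold change was -0.69 (SE 0.11, adjusted p = 0.000663, edgeR). In KO colon it was 32.3, 39.3, 35.6 and 56.9 CPM at D0 and 16.0, 24.3, 28.3 and 25.4 CPM at D19. These groups did not overlap either, and the value of -0.83 (SE 0.24, adjusted p = 0.0534) missed the threshold in edgeR but passed in DESeq2 (adjusted p = 0.0119).

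At D80 *Ptger4* in WT colon was 13.8 CPM in mouse 581 and 30.3, 29.8 and 34.9 CPM in the others (-0.79 against D0, SE 0.27, adjusted p = 0.0914, edgeR). Without mouse 581 the value was -0.59 and passed (adjusted p = 0.00209). In tumors it was 28.9, 29.9, 30.0, 27.9 and 30.0 CPM in WT and 28.9, 27.0 and 28.2 CPM in KO mice, a narrow range. Against D80 colon the log2 fold change was -0.01 in WT (95% interval -0.51 to 0.50) and -0.24 in KO mice (-0.59 to 0.11), and KO against WT tumors differed by -0.01 (-0.29 to 0.27). Of the exon bases of *Ptger4*, 1097 of 6648 overlap genes on the opposite strand, and whether counting used the strand is not given in the sources used here.

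*Ptger3* (ENSMUSG00000040016, chromosome 3, 157566892 to 157645888, plus strand) encodes EP3, which lowers cyclic AMP and is known from smooth muscle and neurons. Its mean level was 4.46 to 6.78 CPM over the colon groups. In tumors it was 1.52, 0.389, 1.53, 0.262 and 1.44 CPM in WT and 0.845, 0.933 and 0.393 CPM in KO mice, below every colon library. The log2 fold change was -2.30 in WT (SE 0.49, adjusted p = 0.0062) and -2.64 in KO mice (SE 0.37, adjusted p = 0.00144, edgeR). Both calls held with the mouse as a replicate block and in every omission of a single library. Its share of the receptor transcripts was 12.3% to 17.9% on average in colon and 3.62% and 2.76% in WT and KO tumors. In KO colon *Ptger3* also fell at D80 against D0 (-0.64, SE 0.24, adjusted p = 0.0456), a call lost with all libraries in a single fit (adjusted p = 0.165) and without 853 or 872 at D0 or 527, 543 or 544 at D80.

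*Ptger2* (ENSMUSG00000037759, chromosome 14, 44988195 to 45003820, plus strand) encodes EP2, which also raises cyclic AMP. In KO colon its level was 1.91, 1.30, 1.06 and 1.43 CPM at D0 and 3.71, 2.92, 2.81 and 3.49 CPM at D19, with no overlap. It rose by 1.15 (SE 0.26, adjusted p = 0.016, edgeR), a call lost without 915 or 872 at D0 or 804 at D19 (adjusted p up to 0.0583). In WT colon it was 3.19, 2.07, 3.09 and 2.66 CPM at D0 and 1.95, 1.43, 2.56 and 2.27 CPM at D19 (-0.47, SE 0.22, adjusted p = 0.109). The genotypes stood in opposite order at the 2 stages. KO libraries lay below all WT libraries at D0, as in 1.65% of genes (-0.93, SE 0.25, adjusted p = 0.452), and above them at D19 (0.68, SE 0.24, adjusted p = 0.4, edgeR).

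In tumors *Ptger2* was 0.761, 1.20, 1.17, 1.62 and 1.57 CPM in WT mice and fell against D80 colon (-0.92, SE 0.26, adjusted p = 0.0254, edgeR), a call lost without WT 541 or 555 at D80 or the tumor of 541 or 542 (adjusted p up to 0.0678). KO tumors had 0.845, 0.773 and 2.14 CPM, the highest in mouse 544, whose tumor library stood apart in its mitochondrial share (-0.75, SE 0.42, adjusted p = 0.167). Without it the value was -1.42 (adjusted p = 0.00316). *Ptger1* (ENSMUSG00000019464, chromosome 8, 83666678 to 83672753, plus strand), the gene of the calcium-coupled EP1, was at 0.113 to 1.48 CPM, with 2 counts in the lowest library. Its values are uncertain, since they rest on few counts. It passed at D19 in WT colon (0.72, SE 0.25, adjusted p = 0.0406, 0.0602 in DESeq2) and in KO tumors (-1.19, SE 0.33, adjusted p = 0.0202). The first call was lost in 7 of 8 omissions of a library (adjusted p up to 0.11), all but that of 927 at D0. The second was lost with the mouse as a replicate block (-1.12, adjusted p = 0.0698) and without 535 at D80 or the tumor of 527.

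**Figure D5:**
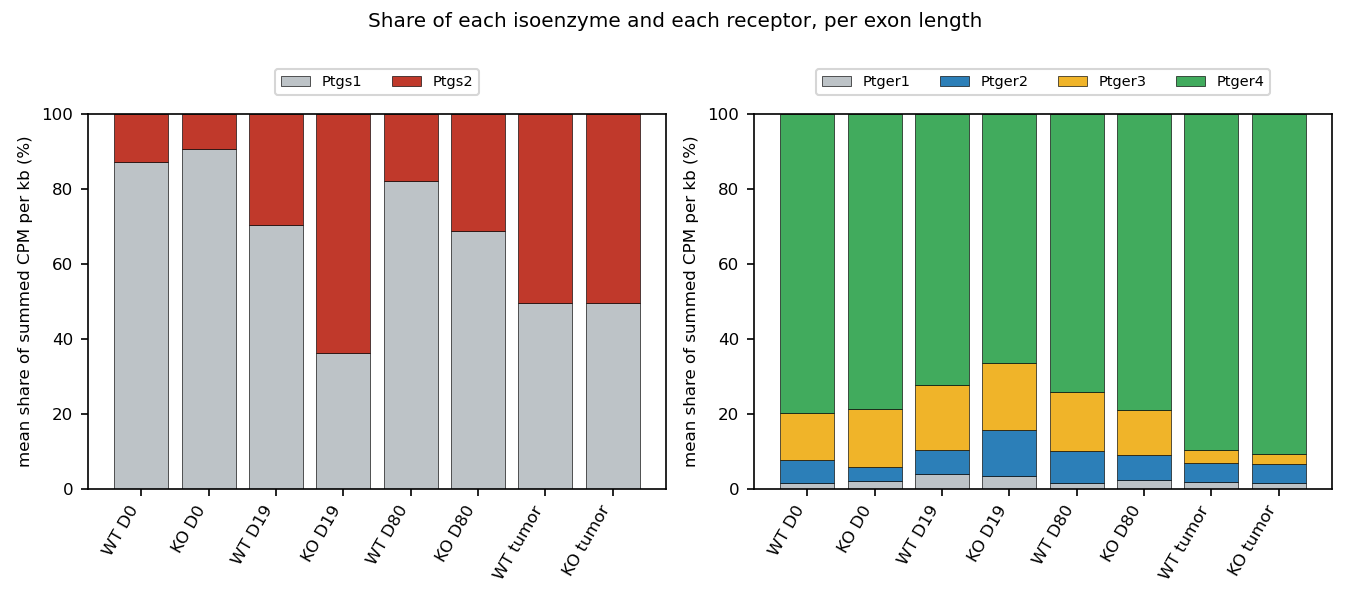
Mean share (%) of each cyclooxygenase gene (left) and of each receptor gene (right) in the summed CPM per kb of its family, by group, as stacked bars that add to 100. *Ptgs2* grows from 9.13% in KO colon at D0 to 63.7% at D19, and *Ptger4* holds at least 66.4% of the receptor transcripts in each group.

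KO against WT colon at D0 had no call among the 9 genes or among all 18175 tested (0%) in edgeR, while 1750 genes lay under 0.05 before adjustment, and by DESeq2 64 genes were higher and 40 lower, none of the 9 among them. Other edgeR fits called 71 genes higher and 29 lower with no filter, 68 and 6 in a fit blocked by prefix, 11 and none over all libraries together, and 1 and none with *Hoxb13* as a covariate, again without any of the 9. *Ptgs2* was lower in KO colon (log2 fold change -0.998, SE 0.33, 95% interval -1.72 to -0.28, adjusted p = 0.468), with overlapping groups. *Hoxb13*, a homeobox gene of the distal colon, was at 7.37 to 55.1 CPM in WT libraries at D0 and at 127.1 to 153.6 CPM in KO libraries except 872 (4.001 CPM). With *Hoxb13* as a covariate *Ptgs2* differed by -1.03 and *Ptger2* by -0.96. Other markers were lower in KO colon at D0 as well, namely 12 of 12 of smooth muscle (median -0.58), 10 of 12 of fibroblasts and matrix (median -0.46) and 9 of 9 of tuft cells (median -0.31), with none passed. Smooth muscle markers summed to 7336 to 13880 CPM in WT and 5264 to 9890 CPM in KO colon, and the part of these cells in the lower *Ptgs2*, *Ptgs1* and *Ptger2* values was not tested. At D80 and in tumors KO against WT had no call (0% of 18899 and of 18961 genes in edgeR), while 1049 and 1254 genes lay under 0.05 before adjustment, and by DESeq2 30 genes were higher and 8 lower at D80 and none between tumors, with none of the 9 among them. By the threshold the study's methods give for tumors (nominal p under 0.01 and fold change over 2), 58 genes (0.306%) and none of the 9 passed. In the test of whether the tumor change differed between genotypes, none of the 9 and none of 20391 genes passed (0%), by edgeR with 2385 under 0.05 before adjustment, and none by DESeq2.

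Other genes of prostanoid metabolism were read from a list of 18. In WT colon at D19, 15 were tested, 7 rose and 3 fell (median 0.06, all genes 0.00), where 24.2% of all genes rose and 22.6% fell. In KO colon 4 rose and 1 fell of 15 (median 0.20, all genes 0.03), where 9.61% of all genes rose and 3.43% fell. *Tbxas1*, thromboxane synthase of myeloid cells and platelets, rose by 1.96 in WT (adjusted p = 0.000294) and 2.76 in KO colon (adjusted p = 0.000337, edgeR). *Pla2g4a*, the cytosolic phospholipase that releases arachidonic acid, rose by 0.92 (adjusted p = 0.000439) and 0.88 (adjusted p = 0.0266). The prostacyclin receptor gene *Ptgir* rose by 1.04 in WT (adjusted p = 0.0186) and 2.08 in KO colon (adjusted p = 0.00559, edgeR). *Cbr1*, a carbonyl reductase that can act on prostaglandin E2, fell in WT (-0.60, adjusted p = 0.00753) and KO colon (-1.07, adjusted p = 0.00958, edgeR). At D80, 3 rose and none fell in WT colon and 4 rose and 5 fell in KO colon.

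In WT tumors 3 of 16 tested rose and 8 fell (median -0.98, all genes -0.06), where 12.4% of all genes rose and 17.2% fell. In KO tumors 4 rose and 9 fell (median -0.65, all genes 0.01), where 21.8% of all genes rose and 24.7% fell. *Pla2g4a* was lower in both (-0.99, adjusted p = 0.00256, and -0.95, adjusted p = 0.00183, edgeR). *Slco2a1*, the transporter that takes up prostaglandins for breakdown, fell as well (-1.44, adjusted p = 0.00309, and -1.64, adjusted p = 0.000657). *Abcc4*, which can export prostaglandin E2, rose (1.68, adjusted p = 0.00222, and 1.18, adjusted p = 0.00582). *Ptgr1*, a reductase acting after *Hpgd*, rose in KO tumors (1.24, adjusted p = 0.00196), and *Tbxa2r*, the thromboxane receptor gene, fell in WT (-1.55, adjusted p = 0.00368) and KO tumors (-1.62, adjusted p = 0.00301). KO against WT had no call in this list at any stage in edgeR.

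Markers of immune cells also differed at D19. Neutrophil markers summed to 42.0 to 237.8 CPM in WT and 461.8 to 778.9 CPM in KO colon at D19, against 5.20 to 19.6 and 5.08 to 54.0 CPM at D0. All 12 were higher in KO colon at D19, with a median log2 fold change of 2.78 (all genes 0.01), and none passed in edgeR. Macrophage and monocyte markers summed to 377.5 to 468.3 CPM in WT and 552 to 977.3 CPM in KO colon, with 11 of 12 higher (median 0.76). At D80, neutrophil markers were higher in KO than in WT colon in 9 of 10 tested (median 1.99), and none passed. Those of macrophages and monocytes were higher in 9 of 12 (median 0.31), again with none passed. Both cell types are known to make *Ptgs2* and *Ptges* transcript. The part of these cells in the D19 and D80 results was not tested. *Hoxb13* also rose from D0 to D19 (2.24, adjusted p = 0.00476) and from D0 to D80 in WT colon (2.40, adjusted p = 0.0329, edgeR). It rose in KO tumors against D80 colon as well (0.94, adjusted p = 0.01, edgeR). Its part in these comparisons was not tested. With *Hoxb13* as a covariate, KO against WT at D19 was 1.02 for *Ptgs2* (SE 0.47, adjusted p = 0.215), 0.80 for *Ptges* (SE 0.25, adjusted p = 0.123) and 0.64 for *Ptger2* (SE 0.30, adjusted p = 0.22).

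In tumors the 12 smooth muscle markers all fell in both genotypes (median -3.25 in WT and -3.49 in KO mice, against -0.06 and 0.01 for all genes). Their sum was 3880 to 4829 CPM in WT and 2414 to 3806 CPM in KO colon at D80, and 199.1 to 821 and 184.9 to 288.5 CPM in tumors. Surface colonocyte markers fell in 7 of 10 in WT and 10 of 10 in KO tumors (median -2.94 and -2.18), and their sum went from 3428 to 6783 and 2620 to 3950 CPM to 733.5 to 1660 and 424.1 to 862.3 CPM. Squamous markers rose in 8 of 8 tested in WT and 6 of 8 in KO tumors (median 5.22 and 4.39). Fibroblast and matrix markers rose in 11 of 12 in both genotypes at D19 (median 1.87 in WT and 3.07 in KO colon), and in tumors 5 fell in WT and 10 in KO mice. Tuft cell markers fell in 6 of 7 tested in WT and 6 of 8 in KO tumors (median -2.38 and -1.995), and 1 rose in each. The sum of tuft cell markers went from 42.4 to 59.9 and 48.8 to 67.3 CPM to 68.9 to 124.5 and 37.8 to 88.9 CPM. Mast cell markers rose in 3 of 8 in WT and 1 of 8 in KO tumors, and 1 fell in each. Neutrophil markers rose in 6 of 10 tested in WT and 2 of 11 in KO tumors (median 1.94 and 0.62), and none fell. Their sum went from 96.1 to 278.5 and 99.3 to 383.1 CPM to 209.3 to 1590 and 643.5 to 1092 CPM. Macrophage and monocyte markers fell in 5 of 12 in WT and 10 of 12 in KO tumors, and 1 rose in WT. The part of all these cells in the falls of *Ptgis*, *Ptger3* and *Hpgd* and the rises of *Ptges* and *Ptgs2* was not tested. No marker of colon epithelium was at 0 in any group, and their sum was 4065 to 24760 CPM.

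The genes whose log2 CPM followed each enzyme most closely over the 32 libraries were read from 12114 genes as a description, since the libraries share stage and tissue makeup. For *Ptgs2* they were *Sphk1* (Pearson's r = 0.926), *Dusp1* (0.908), *Il11* (0.902), *Cemip* (0.901) and *Timp1* (0.895). For *Ptges* they were *Igfbp4* (0.959), *Cxcl1* (0.956), *Mmp10* (0.954), *Ifitm1* (0.953) and *Il1r2* (0.951). For *Hpgd* they were *Mep1a* (0.977), *Sult1d1* (0.970), *Aadac* (0.969), *Cmtm4* (0.968) and *Cyp3a13* (0.967). Among the 9 genes the highest values were those of *Hpgd* with *Ptger3* (0.840) and of *Ptgs2* with *Ptges* (0.839), and the lowest was that of *Ptges* with *Hpgd* (-0.755).

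Total counts per library were 18951121 to 47623288 (median 34333251). Mitochondrial genes took 10.6% of counts in KO mouse 811 at D19, 15.1% in WT mouse 581 at D80 and 8.02% in the tumor of KO mouse 544, the highest of each group.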

How the data were processed

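RNA of whole colon or tumor was counted per gene. Per the labels and methods, the authors used FastQC 0.11.5 for read quality, STAR for alignment to mm10 and Subread for summing over GENCODE genes. The deposited values are raw counts, whole numbers for 55291 symbols. Multi-mapping and strand settings are not given in the sources used here. The 32 libraries held 18951121 to 47623288 counts, which limits *Ptger1* most (2 counts in the lowest library).

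Each comparison was fitted on its own libraries by the quasi-likelihood test of edgeR 4.0.16 (R 4.3.3) after TMM scaling and filterByExpr, with Benjamini-Hochberg adjustment over all genes tested and a threshold of 0.05. An SE is the size of the log2 fold change divided by the root of the F statistic, and intervals use the moderated degrees of freedom. The methods name DESeq2, which is an alternative here (1.42.0). CPM used TMM factors over all 32 libraries, and log2 CPM a prior count of 1. The scripts were tested on simulated data. Gene positions and exon lengths are from GENCODE M21 on GRCm38, the same build.

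Genes were named by a rule: the 9 genes, up to 4 other prostanoid genes with the smallest p in each comparison, up to 3 members of a cell type list, *Dnase1l3*, *Hoxb13* and the 5 genes most like *Ptgs2*, *Ptges* and *Hpgd*. *Ptgir* and *Cbr1* in WT colon at D19, *Slco2a1* and *Tbxa2r* in WT tumors and *Abcc4* in KO tumors are named beside it, after their values were seen. The genes, lists and tests were chosen with earlier results of these data known.

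Other settings were DESeq2, RLE size factors, no filter, a minimum of 10 counts per library, a single fit over all 32, a block for the label prefix, prefixes 115 and 116 only, *Hoxb13* as a covariate, the mouse as a replicate block, and omission of each library. Omission together of the 3 libraries that stood apart was added after seeing the data. They were picked as KO 811 at D19, WT 581 at D80 and the tumor of KO 544. WT mice 541, 542 and 555 and KO mice 527, 543 and 544 gave both colon at D80 and a tumor. Deviations of the pair from their group means correlated with r = 0.031 to 0.243 across genes, which are not independent. Where nothing else is stated, mice of a group are taken as separate animals by their label numbers.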

Additional observations from a re-analysis of the deposited data

Results flagged for a closer look

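*Hpgd* in KO colon at D19 had 1 library far from the other 3. Mouse 811 had 112.8 CPM and the others 53.95 to 60.88 CPM, a gap of 0.882 of the whole range of the group. The same library had the lowest *Ptgs2* level of its group (24.5 CPM) and the highest mitochondrial share (10.6%). Of 63 groups of 4 or 5 libraries tested in this way, this was the 1 found, and chance alone flags about 1 in 20.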

How the results depend on the processing

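Calls by stage for *Ptges* in colon, and for *Ptgs1*, *Ptgis*, *Hpgd* and *Ptger3* in tumors of both genotypes, kept their side of the threshold under every setting tried. Depth limits *Ptger1*, and the 3 to 5 libraries of a group limit all differences between genotypes. The number of the 9 genes called moved between genotypes at D19 to 2 with DESeq2 (1.64% of all genes called) and 1 in a single fit (0.9%), at D80 against D0 in WT to 2 with DESeq2 (16.5%), 2 in a single fit (21.6%) and 3 without the libraries that stood apart (48.2%), and for the D19 interaction to 3 with DESeq2 (0.884%). Omission of single libraries gave 2 to 4 calls at D19 in WT, 2 to 5 at D19 in KO, 1 to 3 at D80 in WT, 3 to 6 at D80 in KO, 6 to 7 in WT tumors, 4 to 7 in KO tumors, 0 to 1 for the D19 interaction and 0 in the others. In the paired fit (replicate block by mouse), 7 genes were called in WT (48.6% of all genes) and 4 in KO tumors (28.9%), the latter without *Ptges* (0.64, adjusted p = 0.0872) and *Ptger1* (-1.12, adjusted p = 0.0698), and no other call changed. The block turned the tumor interaction of *Ptgs1* to 0.04, *Ptger2* to -0.05 and *Ptger4* to 0.019. Signs of small differences that passed no test also turned. With the label prefix as a block, KO against WT gave 0.043 for *Ptges* and -0.13 for *Hpgd* at D0, -0.031 for *Ptgs1* at D19, -0.22 for *Ptgs2* and 0.074 for *Ptger2* at D80, and 0.52 for *Ptgis* and 0.18 for *Hpgd* in tumors. With *Hoxb13* as a covariate it gave -0.04 for *Ptger1* at D0, -0.24 for *Ptgs1* and 0.022 for *Hpgd* at D19, and -0.088 for *Ptger2* in tumors. *Ptgs1* at D19 was -0.005 with no filter, -0.002 with the stricter filter and -0.005 on prefixes 115 and 116. Without the libraries that stood apart, *Ptger2* was -0.65 between tumors, and the tumor interaction was 0.008 for *Ptgs1*, -0.20 for *Ptgis* and -0.60 for *Ptger2*. *Ptger4* in WT tumors against D80 was 0.01 with DESeq2, 0.026 with no filter and 0.11 in a single fit. Omission of single libraries also spanned 0 in the log2 fold changes that follow. Between genotypes at D0, *Ptges* (-0.25 to 0.034) and *Hpgd* (-0.063 to 0.18). Between genotypes at D19, *Ptgs1* (-0.23 to 0.17). Between genotypes at D80, *Ptger2* (-0.17 to 0.004) and *Ptger3* (-0.37 to 0.047). Between tumors, *Ptges* (-0.24 to 0.20), *Ptgis* (-0.61 to 0.21), *Ptger2* (-0.65 to 0.36) and *Ptger4* (-0.081 to 0.050). At D19 in WT, *Ptger3* (-0.16 to 0.040). At D80 in WT, *Ptgs2* (-0.064 to 0.57). At D80 in KO, *Ptger1* (-0.24 to 0.021). In WT tumors, *Ptger1* (-0.48 to 0.034) and *Ptger4* (-0.21 to 0.12). For the D19 interaction, *Ptger4* (-0.24 to 0.053). For the tumor interaction, *Ptgs1* (-0.18 to 0.031), *Hpgd* (-0.16 to 0.71) and *Ptger2* (-0.54 to 0.43). The cause of these shifts was not tested.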
